A study of Mus musculus with 6 samples.

Results

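A set of transcription factor genes that set up and maintain endothelial identity were followed in blood endothelial cells of the mouse intestine after the neighbouring epithelium had lost Apc. They were the SOX-F genes Sox7, Sox17 and Sox18, the ETS genes Erg, Fli1, Ets1 and Ets2, the hemangioblast genes Tal1 and Gata2, and the nuclear receptor gene Nr2f2. Each of these 10 genes, of 22180 genes with a probe set of their own, was measured by exactly 1 probe set that the platform annotation assigns to that gene alone, and all 10 lay above the background of the arrays, as did 15312 genes in all. None of the 10 passed the test of knockout against control, and 1 of them, Sox17, lay close to the threshold with a lower mean in the knockout.

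The study compared 3 arrays from knockout mice with 3 from control mice, each labelled as a biological replicate. Knockout mice carried floxed Apc alleles and Villin-CreERT2, a Cre recombinase that tamoxifen switches on and that the promoter of villin, an epithelial gene, confines to the epithelium of the gut. Control mice carried the same floxed alleles, are labelled WT, and are given no Cre in the labels. All mice had a mixed C57BL/6 x 129 background, received tamoxifen under the skin on 5 successive days, and were sampled on day 6, and the labels state neither their age nor whether animals were pooled. Cells were sorted as live CD31+ cells that lacked CD45, EpCAM and gp38 after collagenase digestion, so the recombinase acts in a cell type other than the one measured. Apc in the sorted cells had means of 6.35 in the knockout and 6.50 in the control (log2 change -0.16 ± 0.14 SE, limma adjusted p = 0.65), which says nothing on deletion in the epithelium.

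SOX-F factors bind DNA through a high-mobility-group box and act in arterial specification, vessel maturation and lymphatic commitment, partly in place of one another. ETS factors recognise a GGAA core through a winged helix domain, and such cores occur in the control regions of most genes that are restricted to endothelium, so that ERG and FLI1 are regarded as keepers of endothelial identity. TAL1 and GATA2 act in shared complexes in the embryonic precursor of blood and endothelium, and GATA2 stays active in mature endothelium. NR2F2, also called COUP-TFII, promotes venous identity and opposes Notch signalling, and it is also active in lymphatic endothelium and in stromal cells.

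All values are log2 RMA values of the deposited table, and a change is the knockout mean minus the control mean on this scale. After a change, ± is the standard error of a limma fit across all 15312 genes, and after a group mean it is the SD of 3 arrays. Adjusted p-values are limma's with Benjamini-Hochberg adjustment over those genes, with a threshold of 0.05, and 95% intervals come from the same fit, each for its gene alone. Background was a log2 value of 4.11, the 90th percentile among 1429 genes for receptors of odour, pheromones and bitter taste, and a gene counted as above background where its mean over the 6 arrays exceeded it. Levels of different genes are not compared, since probe sets differ in brightness. Correlations between arrays lay between 0.964 and 0.984, and their number, 3 per group, limits the precision. Pecam1, which encodes CD31, averaged 11.4 in both groups, and of 15 pan-endothelial markers all were above background. Ptprc, the gene for CD45, averaged 4.14 and 4.46, near background. Pdpn, the gene for gp38, averaged 5.11 in the knockout and 5.42 in the control (change -0.30 ± 0.18, adjusted p = 0.461) and was above 4.11 on all 6 arrays. Epcam was below background on the 3 knockout arrays and on control 1, but at 7.20 and 6.24 on controls 2 and 3. Enterocyte transcripts were present on all 3 control arrays, with Fabp1 at 9.71, 11.20 and 10.29 on controls 1 to 3 against 6.55, 7.42 and 6.53 on knockout arrays 1 to 3.

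Of the 10 members, 0 passed the adjusted threshold by limma and 1 had an unadjusted p under 0.05, against 2.57% and 16.4% of all genes tested. Genes that passed the adjusted threshold with a higher level in the knockout made up 1.10% of those tested, and genes that passed with a lower level 1.47%. At an adjusted threshold of 0.10, 1 member passed (Sox17), against 5.02% of all genes. For 2 members, Sox7 and Sox17, all knockout arrays lay below all control arrays, and for 0 members did they lie above. Over all genes the groups were apart in this way for 22.0%, with the knockout lower for 12.3%. The changes of the members ran from -0.52 to 0.11, with 7 negative, 3 positive and a median of -0.072, beside a median of -0.017 over all genes tested. The median size of change regardless of sign was 0.10 for the members and 0.15 for all genes. Standard errors of the members ran from 0.055 for Sox18 to 0.15 for Nr2f2, against a median of 0.15 over all genes. These medians were not matched for brightness or precision of the probe sets, so they do not show that the members were steadier.

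**Figure D1:**
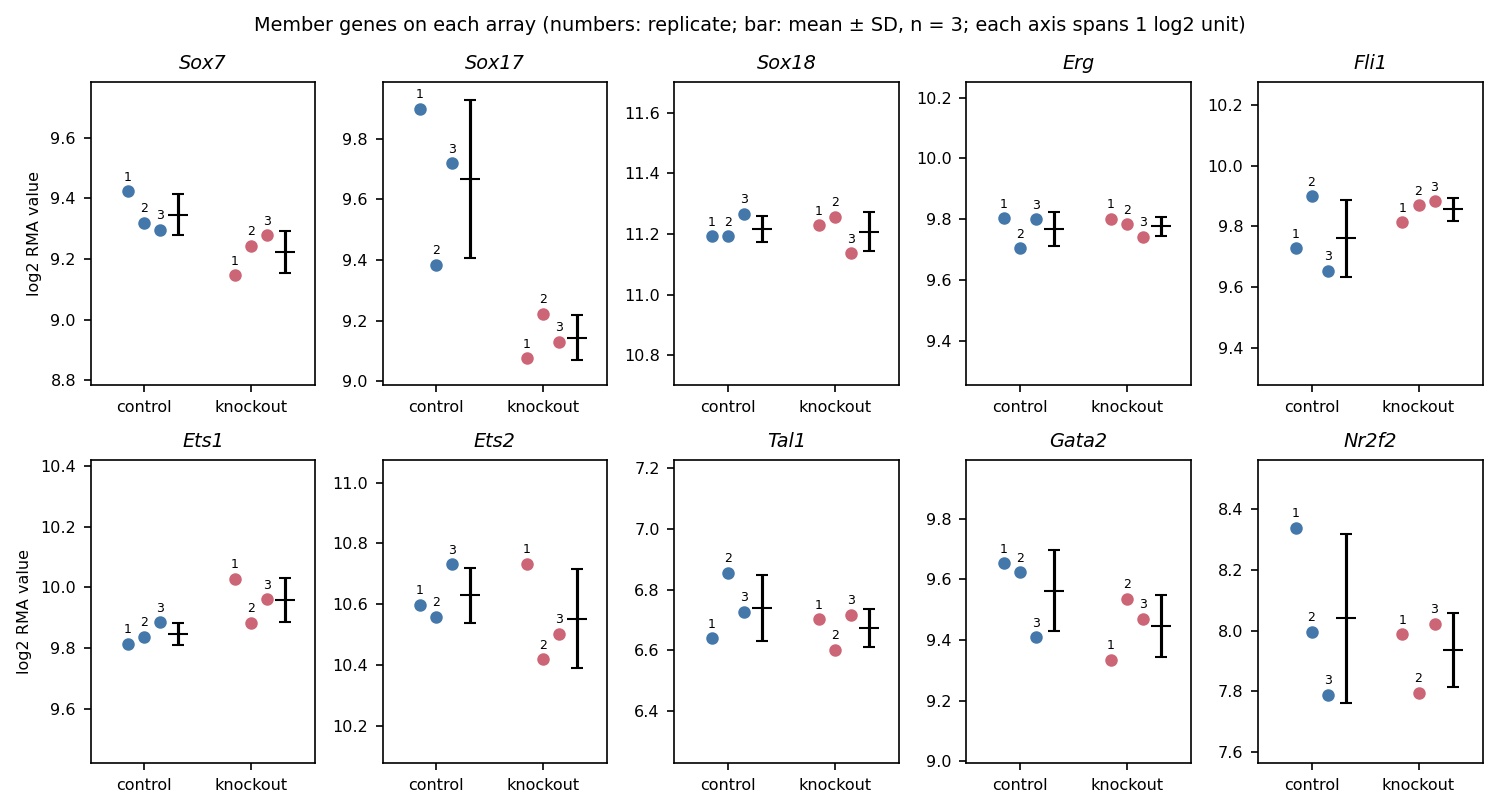
Log2 RMA values of the 10 genes on the 3 control (blue) and 3 knockout (red) arrays, numbered by replicate, with mean ± SD to the right of each group; every vertical axis spans the same log2 distance and does not start at 0. Only Sox7 and Sox17 have groups that do not overlap, and Sox17 has means of 9.67 in the control and 9.14 in the knockout.

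Sox17, which acts in arterial endothelium, where it works with Notch signalling, showed the largest difference among the members. It was at 9.08, 9.22 and 9.13 on knockout arrays 1 to 3 and at 9.90, 9.38 and 9.72 on control arrays 1 to 3. All 3 knockout arrays lay below all 3 controls, with a gap of 0.16 between the highest knockout and control 2, the lowest control. Group means were 9.14 ± 0.074 in the knockout and 9.67 ± 0.26 in the control, so the controls were the more scattered group. The change was -0.52 ± 0.12, which is a knockout level 0.696 times that of the control with a 95% interval from 0.572 to 0.846. Its adjusted p was 0.0644, and it ranked 544th by p among the 15312 genes, where 393 passed. An exact two-sided permutation test over the arrays gave p = 0.1, the smallest p that 3 against 3 allows. Every gene whose groups do not overlap gets this value, Sox7 among them, so it adds nothing to the non-overlap. The call depended on single settings. Without control 2 the change was -0.67 with an adjusted p of 0.028, and without control 3 it was -0.50 with an adjusted p of 0.192. With only genes above a stricter background the adjusted p was 0.0417.

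Markers of other cells moved between the same groups, and their part in the Sox17 result was not tested. Of 12 mural markers, genes of the smooth muscle cells and pericytes that wrap vessels, 6 fell and 0 rose, 11 having a negative change (median -0.73). Acta2, smooth muscle actin, fell by 0.82 and Rgs5, a pericyte gene, fell by 0.70, with adjusted p-values of 0.0291 and 0.0258. Both calls were lost without knockout 3, control 2 or control 3, that of Rgs5 also without knockout 2, and that of Acta2 also without knockout 1 or control 1. The summed level of the mural list, as log2 of the summed linear values, ran from 12.1 to 12.6 on the knockout arrays and from 13.0 to 13.3 on the control arrays. Among the controls the mural list mean ran in the same order as Sox17, with control 1 at 0.21, control 3 at -0.039 and control 2 at -0.17 around the control mean. This order was not particular to the mural list. On controls 1, 3 and 2 the fibroblast list mean was at 0.29, -0.048 and -0.24. The macrophage and dendritic list mean was at 0.15, 0.076 and -0.22, while other marker lists ordered the controls otherwise. Of 17 enterocyte markers, 11 fell, all 17 having a negative change (median -1.90), led in brightness by the fatty acid binding protein genes Fabp2 (-3.29) and Fabp1 (-3.57), adjusted p 0.00477 and 0.00333. Their summed level ran from 9.93 to 10.2 in the knockout and from 11.9 to 13.6 in the control. Among the controls the enterocyte mean ran in the opposite order to Sox17, lowest on control 1 at -1.05 and highest on control 2 at 0.78. With controls 2 and 3, which had Epcam signal, left out together, the difference of Sox17 was -0.75; it rests on control 1 alone, the highest control for Sox17, and is given without a test. In sorted bulk samples such as these, fewer cells of a type and less RNA per cell cannot be told apart. Of 15 pan-endothelial markers, 1 rose (Eng) and 1 fell (Cldn5), and 8 had an unadjusted p under 0.05 (7 higher, 1 lower). Their list mean lay between -0.054 and 0.049 around the control mean on all 6 arrays, an average over genes of opposite sign. Their summed level did not overlap between the groups, running from 15.05 to 15.09 in the knockout and from 14.93 to 15.01 in the control.

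**Figure D2:**
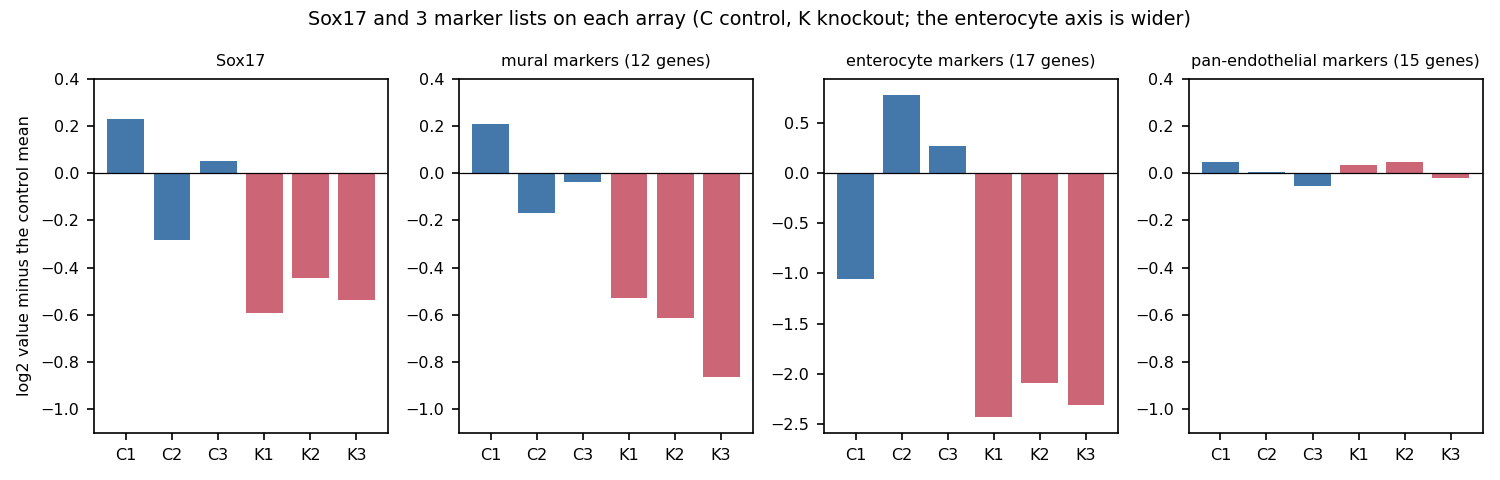
Log2 value minus the control mean on each array for Sox17 and for the means of the 12 mural, 17 enterocyte and 15 pan-endothelial markers above background (C control in blue, K knockout in red; the enterocyte axis covers a wider range than the others). Sox17 and the mural list are lowest on the knockout arrays and order the controls alike. The fibroblast and macrophage lists, not drawn, order the controls in the same way, and the enterocyte list orders them the other way. The pan-endothelial mean lies between -0.054 and 0.049, averaging Cldn5 at -1.28 with 7 genes that were higher at an unadjusted p under 0.05.

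The other SOX-F genes stood apart from Sox17 in size. Sox7 was at 9.15, 9.24 and 9.28 in the knockout and at 9.42, 9.32 and 9.30 in the control. The groups did not overlap, but knockout 3 and control 3 were only 0.019 apart, less than the spread inside either group. Its change was -0.12 ± 0.078 (adjusted p = 0.492), with an interval for the ratio of knockout to control from 0.812 to 1.04. It was negative under all 16 alternative settings of the analysis, but several of these cannot move the change of a member. Those settings alter only the gene filter, the variance model, the replicate block or the averaging of probe sets, of which each member has 1. Leaving out or weighting arrays could not turn the sign of Sox7 either, since its groups did not overlap. Sox18, mutated in the ragged mouse strains with vascular and lymphatic defects, was at 11.23, 11.26 and 11.14 in the knockout and at 11.19, 11.19 and 11.27 in the control. The groups overlapped, with a change of -0.0099 ± 0.055 (adjusted p = 0.954) and an interval for the ratio from 0.911 to 1.08. Its sign turned positive in 5 of 16 settings, both rescalings among them, and some of the 16 could not have turned it. The difference between the changes of these 3 genes was not tested.

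The genes nearest to Sox17 in pattern were Zfp1, a zinc finger gene, Casz1, a castor-family zinc finger transcription factor gene, and Gm7226, a predicted gene. Likeness was measured as the root mean square difference between genes over the 6 arrays, after each gene's own mean was taken away, and was 0.0392 for Zfp1, 0.0425 for Casz1 and 0.0706 for Gm7226. Casz1 was at 6.23, 6.28 and 6.20 in the knockout and at 7.01, 6.42 and 6.76 in the control, with control 1 highest and control 2 lowest among the controls. Zfp1 followed the same order, at 5.62, 5.73 and 5.71 in the knockout and at 6.42, 6.00 and 6.23 in the control. These 3 genes did not pass the test, with changes of -0.53 for Zfp1, -0.49 for Casz1 and -0.41 for Gm7226 and adjusted p-values of 0.111, 0.167 and 0.216. Since they were picked for likeness to Sox17, their order of controls and size of change follow from that choice and are not separate evidence.

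The ETS members did not pass, with changes from -0.078 to 0.11. Erg, whose product sustains junctions and lineage genes in endothelium, was at 9.80, 9.78 and 9.74 in the knockout and at 9.80, 9.70 and 9.80 in the control. The knockout arrays lay inside the control range of 0.098. Its change was 0.0073 ± 0.067 (adjusted p = 0.973), and the interval for the ratio ran from 0.905 to 1.12. The sign turned in 4 of 16 settings, among them the second quantile normalization, and some of the 16 could not have turned it. Fli1, its closest relative, was at 9.81, 9.87 and 9.88 in the knockout and at 9.73, 9.90 and 9.65 in the control. Control 2 was above all knockout arrays and the other controls below them, and the change was 0.095 ± 0.080 (adjusted p = 0.617) with a ratio interval from 0.942 to 1.21. Controls 2 and 3 set its size, since it was 0.16 without control 2 and 0.042 without control 3.

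Ets1, an ETS factor of angiogenic endothelium and of lymphocytes, was at 10.03, 9.88 and 9.96 in the knockout and at 9.81, 9.84 and 9.88 in the control. Knockout 2 and control 3 were level, and the other arrays kept the groups apart. Its change of 0.11 ± 0.068 was the highest among the members (adjusted p = 0.473), with a ratio interval from 0.971 to 1.20. It was positive in all 16 settings, including those that cannot move it. A second probe set shared by Ets1 and Taok1 was left out because it does not belong to 1 gene. Ets2, a widely expressed target of Ras and MAP kinase signalling, was at 10.73, 10.42 and 10.50 in the knockout and at 10.60, 10.56 and 10.73 in the control. Knockout 1 reached the highest control and the other knockout arrays lay below the controls, with a change of -0.078 ± 0.089 (adjusted p = 0.729) and a ratio interval from 0.824 to 1.09. With single arrays left out the change ran from -0.17 without knockout 1 to -0.011 without knockout 2.

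Ets1 and Fli1 are also expressed in lymphocytes, which the CD45 gate should remove, and the lymphocyte lists had medians of opposite sign. Of 10 T and NK cell markers above background, 0 passed by limma, 5 had an unadjusted p under 0.05, and all 10 had a negative change (median -0.57). Nkg7 and Gzma, genes of cytotoxic granules, were at -0.64 and -1.87 (adjusted p = 0.116 and 0.0536), and Cd2 and Klrd1 were not above background. The summed level of this list ran from 7.94 to 8.26 in the knockout and from 8.54 to 9.41 in the control. Of 6 B and plasma cell markers above background, 0 passed by limma, 1 had an unadjusted p under 0.05, and 3 had a positive and 3 a negative change (median 0.19). The summed level of these ran from 10.87 to 12.45 in the knockout and from 10.84 to 11.44 in the control. Their part in the Ets1 and Fli1 values was not tested.

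Of the hemangioblast genes, Tal1, a basic helix-loop-helix factor, was at 6.70, 6.60 and 6.72 in the knockout and at 6.64, 6.85 and 6.73 in the control. Its groups overlapped, with a change of -0.067 ± 0.12 (adjusted p = 0.838) and a ratio interval from 0.790 to 1.15. Against control 1 alone, the lowest control for Tal1, the difference was 0.034. Gata2, a zinc finger factor, was at 9.34, 9.54 and 9.47 in the knockout and at 9.65, 9.62 and 9.41 in the control. Control 3 lay inside the knockout range and the other 2 controls above it. The change was -0.11 ± 0.092 (adjusted p = 0.601), with a ratio interval from 0.799 to 1.07. With single arrays left out it ran from -0.19 without control 3 to -0.059 without knockout 1.

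Tal1 and Gata2 are also active in mast, erythroid and megakaryocytic cells. Of 9 mast cell markers 8 were not above background, among them the mast cell protease genes Mcpt1, Mcpt2 and Mcpt4. Of these, Mcpt1 was at 4.43 on knockout 1 and at 5.23 on control 2, with the other 4 arrays and its mean below background. Kit was at 0.13 ± 0.13 (adjusted p = 0.687). Of 4 platelet markers and 2 erythroid markers above background, 0 passed by limma, and 0 had an unadjusted p under 0.05. The platelet gene Pf4 was at -0.18, Ppbp at 0.013, the erythropoietin receptor gene Epor at -0.11 and the erythrocyte anion exchanger gene Slc4a1 at -0.036. The globin genes Hbb-bs and Hba-a1 had no probe set annotated to 1 gene alone and were not used here.

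Nr2f2 had the widest control range of the members. It was at 7.99, 7.80 and 8.02 in the knockout and at 8.34, 8.00 and 7.79 in the control. The control range of 0.55 spanned all 3 knockout arrays. The change was -0.11 ± 0.15 (adjusted p = 0.78), with a ratio interval from 0.738 to 1.17, on the log2 scale the widest of the 10. Control 1 decided its sign, since without that array the change was 0.043, while against control 1 alone, the highest control for Nr2f2, the difference was -0.40, given without a test.

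Nr2f2 is also a gene of lymphatic endothelium and of fibroblasts, cells that the gp38 gate should remove where they carry that marker, whose gene Pdpn is given above. Of 6 lymphatic markers above background, 2 rose and 0 fell, namely Flt4, which is also a gene of angiogenic blood vessels, at 0.65 ± 0.091 (adjusted p = 0.0104) and the hyaluronan receptor gene Lyve1 at 1.13 ± 0.23 (adjusted p = 0.0406). The Lyve1 call was lost on leaving out any single array but knockout 1. Prox1, the factor that defines lymphatic identity, averaged 4.42 and 4.37, close to background. The summed lymphatic level ran from 9.45 to 9.75 in the knockout and from 8.82 to 9.05 in the control. This sum weighs most on its brightest genes, Flt4 and Lyve1, the same 2 that rose, and is not separate evidence. The 4 other markers above background did not pass, and 1 of these, Pdpn, had a negative change. Of 7 fibroblast markers above background, 1 fell, the collagen gene Col1a2 at -0.83 (adjusted p = 0.0433), and Dcn was at -0.074 (adjusted p = 0.916). The Col1a2 call was lost on leaving out any single array but knockout 1. The fibroblast sum overlapped between the groups, from 9.19 to 9.59 in the knockout and from 9.55 to 9.99 in the control. Control 1, the highest control for Nr2f2, was also the highest control for the fibroblast list mean, 0.29 above the control mean. Controls 2 and 3 were in the opposite order to Nr2f2 there, at -0.24 and -0.048. Control 1 was also the highest control for the mural, macrophage and pan-endothelial list means. Of these, the pan-endothelial mean ordered all 3 controls as Nr2f2 did. The part of any of these cells in the Nr2f2 values was not tested.

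**Figure D3:**
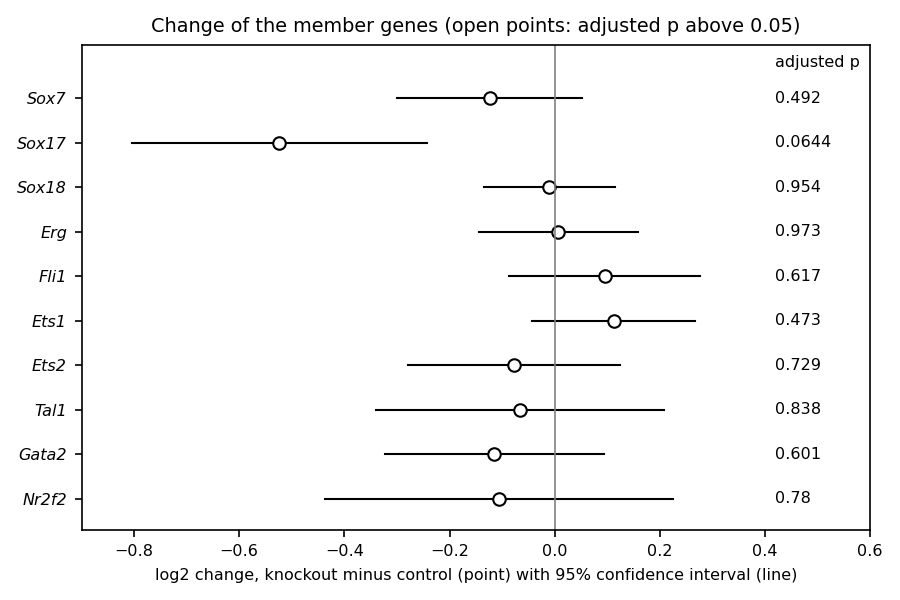
Log2 change, knockout minus control, of the 10 genes (open points) with the 95% confidence interval of the limma fit (lines) and the adjusted p at the right. The interval of Sox17 lies below 0 with an adjusted p of 0.0644, and those of the other 9 genes include 0.

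For the 9 members other than Sox17 the intervals limit what the arrays could have missed. Changes lay between -0.12 and 0.11, adjusted p-values between 0.473 and 0.973, and all 9 intervals fitted between ratios of 0.738 and 1.21. The intervals do not show that levels were equal.

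Relatives and partners of the members were read from lists of named genes. Of 15 other ETS-family genes above background, 0 passed by limma and 1 had an unadjusted p under 0.05 (median change 0.050). That gene was Etv6, an ETS repressor needed for vessel sprouting and blood stem cells, which was at 8.58, 8.33 and 8.39 in the knockout and at 8.09, 8.05 and 7.93 in the control. Its groups did not overlap, as for 22.0% of all genes tested, and its change was 0.41 ± 0.10 (adjusted p = 0.0757). Elf4 was next at 0.25 ± 0.11 (adjusted p = 0.308).

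Of 22 partners of TAL1 and GATA2 and other blood and endothelial factors, 0 passed by limma and 3 had an unadjusted p under 0.05, all with negative changes (median -0.070). Over all genes tested 16.4% had such a p, and 9.22% had it with a negative change. These shares also serve for the counts of the other related lists. Lmo2, the bridging protein that holds TAL1 and GATA factors in one complex, was at 7.01, 6.81 and 7.15 in the knockout and at 7.57, 7.50 and 7.27 in the control. The knockout arrays lay below all controls, as for 12.3% of all genes tested. Lmo2 had a change of -0.46 ± 0.13 (adjusted p = 0.123), and Myb was at -0.42 ± 0.15 (adjusted p = 0.19). Of 12 other SOX genes above background, 0 passed by limma and 3 had an unadjusted p under 0.05 (median -0.20). Sox6, at -0.68 ± 0.21 (adjusted p = 0.138), and the epithelial progenitor gene Sox9, at -0.47 ± 0.15 (adjusted p = 0.159), had the smallest p-values. Sox6 was close to background, with means of 4.34 in the knockout and 5.01 in the control, and knockout 1, at 3.92, was below it.

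Endothelial genes reported to be bound or controlled by SOX-F or ETS factors moved in both directions. Of 25 members, all above background, 3 rose, 1 fell and 21 did not pass, and 12 had an unadjusted p under 0.05 (10 higher, 2 lower), with a median of 0.063. Cldn5, the tight junction gene that ERG activates, fell by 1.28 ± 0.19 (adjusted p = 0.0137), from 9.93, 9.63 and 9.08 in the controls to 8.16, 8.45 and 8.19 in the knockout. Flt4, given above, Eng, a co-receptor of the TGF-beta family, at 0.26 ± 0.044 (adjusted p = 0.0211), and the Wnt and norrin receptor gene Fzd4, at 0.30 ± 0.062 (adjusted p = 0.0419), rose. The cadherin gene Cdh5, also in this list, was at -0.052 (adjusted p = 0.623). Most of the pan-endothelial markers, Eng and Cldn5 among them, are also in this list, and Flt4 is also a lymphatic marker. The counts of these lists are therefore not separate evidence. Plvap, of the fenestral diaphragm, is a pan-endothelial marker outside this list and was at 0.25 (adjusted p = 0.0527). The calls in this list rested on few arrays. Leaving out knockout 1 raised the adjusted p of Cldn5 to 0.0509, and leaving out knockout 3 raised it to 0.0639. Flt4 missed the threshold without knockout 3, Eng without knockout 2 or 3 or control 2 or 3, and Fzd4 without any 1 of the 6 arrays. The count of 4 became 2 without knockout 1 or control 2, 0 without knockout 3, and 3 without any other single array.

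Of 16 arterial and venous genes around NR2F2, 0 passed by limma and 3 had an unadjusted p under 0.05 (median -0.0012). The apelin receptor gene Aplnr, which marks veins and capillaries, was at -0.57 ± 0.15 (adjusted p = 0.0966). It passed in 1 of 16 settings, with the replicate number as a block (adjusted p = 0.0211), although replicate numbers gave no pairing. Notch1 was at 0.26 ± 0.074 (adjusted p = 0.113).

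**Figure D4:**
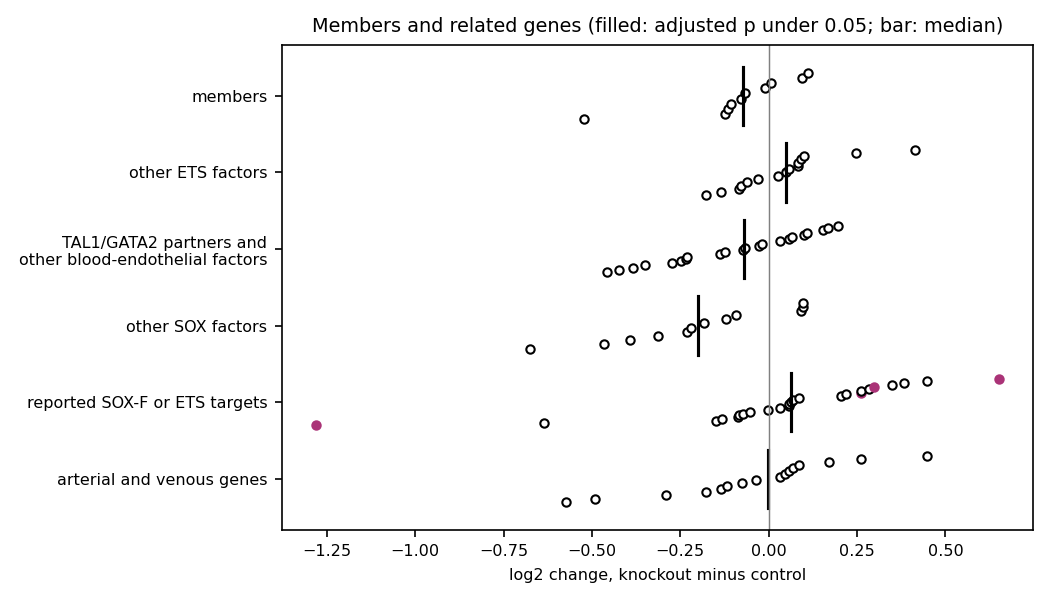
Log2 change, knockout minus control, of the 10 members and of the genes above background in 5 related lists; each point is a gene, filled points passed an adjusted p of 0.05 and bars are medians. Among the genes drawn, filled points occur in the list of reported SOX-F or ETS targets alone, with Cldn5 at -1.28 and Flt4 at 0.65 as its extremes. The cell type marker lists, not drawn, also held genes that passed, so such calls were not particular to these targets.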

How the data were processed

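RNA of 6 sorted cell samples was amplified, labelled with biotin and hybridised to 1-colour Affymetrix Mouse Gene 2.0 ST arrays. Values were deposited as log2 per probe set, made with RMA in oligo per the submitters' processing notes, whose versions are not given in the sources used here. Array medians over 41345 probe sets lay between 4.77 and 4.81. Probe sets with 1 gene symbol (23521) were kept, those with several (1814) or none (16010) left out, and the brightest probe set stood for a gene. Knockout was tested against control, two-sided, by lmFit and by eBayes with trend in limma 3.58.1 (R 4.3.3), after a test on simulated data. Plots used matplotlib 3.10.9.

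Members and lists were chosen with earlier results of these data known. Named genes were all members, the passing genes of each related list (otherwise its 2 smallest p, at most 4), the 2 brightest markers of each cell type, the sort markers and Apc, and the 3 genes nearest in pattern to the member with the smallest p. Other names were chosen after their values were seen: Prox1, Cd2, Klrd1, Mcpt1, Mcpt2, Mcpt4, Hbb-bs, Hba-a1 and the blood factors and Etv2 among the other observations. Replicate numbers gave no pairing, with correlations of same-numbered arrays' deviations from -0.021 to 0.039.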

Additional observations from a re-analysis of the deposited data

How the results depend on the processing

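The count of members that passed was 0 in the fit reported and 1, always Sox17, with the background level at the 99th percentile of the receptor genes, with a threshold of 0.10, and without control 2. With single arrays left out it ranged from 0 to 1. It was 0 with no filter on dim genes, with either rescaling, with all probe sets averaged, without the variance trend, with robust variances, with array weights and against control 1 alone, where that array was assumed to vary like the knockout arrays. The change of Sox17 kept its sign in all 16 settings, from -0.75 to -0.41, with adjusted p-values from 0.028 to 0.192. Settings that alter only the gene filter, the variance model, the replicate block or the averaging of probe sets could not move that change. Leaving out or weighting arrays could not turn its sign, since the Sox17 groups did not overlap. The constant sign is therefore not evidence of a stable result. With the replicate number as a block, 0 members passed and Sox17 had an adjusted p of 0.0922, while 394 genes passed instead of 393. The count over all genes was 139 without the variance trend, 52 against control 1 alone, 768 at a threshold of 0.10, and 91 to 379 with single arrays left out. The cause of these shifts was not tested, and leaving arrays out changes their number and their identity together. Rescaling moved the median change of all genes from -0.017 to 0.014 at most. Among genes outside the members, settings computed after the data were seen gave Eng a call in 10 of 16, Fzd4 in 7, Flt4 and Cldn5 in 14 each, and Lyve1 in 8. A second probe set per member was not tried, since each member has 1.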

Other observations

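Of 25 listed partners of TAL1 and GATA2 and other blood and endothelial factors, 3 were not above background and 22 were. Gata1, the erythroid GATA factor, averaged 3.93 in the knockout and 3.96 in the control, Runx1, which drives the emergence of blood cells from endothelium, 4.09 and 3.89, and Nfe2, a megakaryocytic and erythroid factor, 3.92 and 3.67, against a background of 4.11. Etv2, the ETS factor that starts endothelial development in the embryo and is shut off later, averaged 3.91 and 4.08. These 4 genes were not tested. Other factors of blood cells were above background, among them Spi1 (knockout mean 5.64, control mean 5.67), Gfi1b (5.62 and 5.85) and Lyl1 (5.91 and 5.81). All of these genes were chosen after their values were seen.

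The brightest B and plasma cell markers were Ighm, at 0.53 ± 0.38 (adjusted p = 0.554), and Jchain, at 0.41 ± 0.25 (adjusted p = 0.472), and of 6 such markers above background 0 passed by limma and 1 had an unadjusted p under 0.05. Of 10 macrophage and dendritic markers 0 passed by limma and 1 had an unadjusted p under 0.05, with Cd68 at 0.054 ± 0.23 (adjusted p = 0.937) and C1qb at 0.18 ± 0.20 (adjusted p = 0.72).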
